A study of Homo sapiens with 6 samples.

Results

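The 9 genes described here encode enzymes and receptors of the prostaglandin pathway and were chosen by name from 58735 genes in the deposited expression table. They are PLA2G4A, PTGS1, PTGS2, PTGES, PTGES2, PTGES3, PTGER2, PTGER4 and HPGD. RNA was sequenced from HaCaT, an immortalised line of human keratinocytes and thus a single cell line rather than normal epidermis. One group of 3 samples was irradiated with ultraviolet B (UVB). The labels put the dose at 50 mJ without an area. This group was then cultured for 24 h. The other group of 3 samples served as controls, also listed at 24 h, and how they were handled during irradiation is not stated. No allele, transgene or second agent is named for either group. Whether the samples came from separate cultures is not stated, and the p-values below speak only to variation among these 6 libraries, possibly technical.

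Prostaglandins are lipid mediators made from arachidonic acid. Cytosolic phospholipase A2 frees the fatty acid from membranes, cyclooxygenases turn it into the unstable intermediate prostaglandin H2, and terminal synthases convert that into prostaglandin E2. Prostaglandin E2 acts on receptors at the cell surface and is inactivated by a dehydrogenase. In skin, keratinocytes are a source of prostaglandin E2 after ultraviolet exposure, and the lipid is known for its part in sunburn redness, pain and proliferation of the epidermis.

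After UVB, RNA of the inducible cyclooxygenase PTGS2 was higher, whereas RNA of the phospholipase PLA2G4A and of the prostaglandin-degrading dehydrogenase HPGD was lower. PTGS2 averaged 8.15 ± 0.513 FPKM after UVB and 2.58 ± 0.149 FPKM in controls (SD, n = 3 each). FPKM are fragments per kilobase of exon, scaled to the total of assigned reads, so levels of different genes can be compared on this scale. PLA2G4A averaged 1.08 ± 0.107 FPKM after UVB and 2.04 ± 0.0776 FPKM in controls, and HPGD averaged 0.790 ± 0.102 FPKM after UVB and 1.97 ± 0.121 FPKM in controls. The 3 prostaglandin E synthases and the receptors PTGER2 and PTGER4 did not pass the test. Of the 9 genes, 8 reached the filter of 0.5 FPKM on average and were tested, and PTGS1 lay under that filter. With limma on log2(FPKM + 1) and a Benjamini-Hochberg adjusted p under 0.05, 1 of the 8 was higher and 2 were lower. Among all 14921 genes tested, 27.9% were called, 17.0% as higher and 11.0% as lower, so a count of 3 calls among 8 genes is near the background. In bulk RNA, fewer cells expressing a gene and less RNA of it per cell cannot be told apart.

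**Figure D1:**
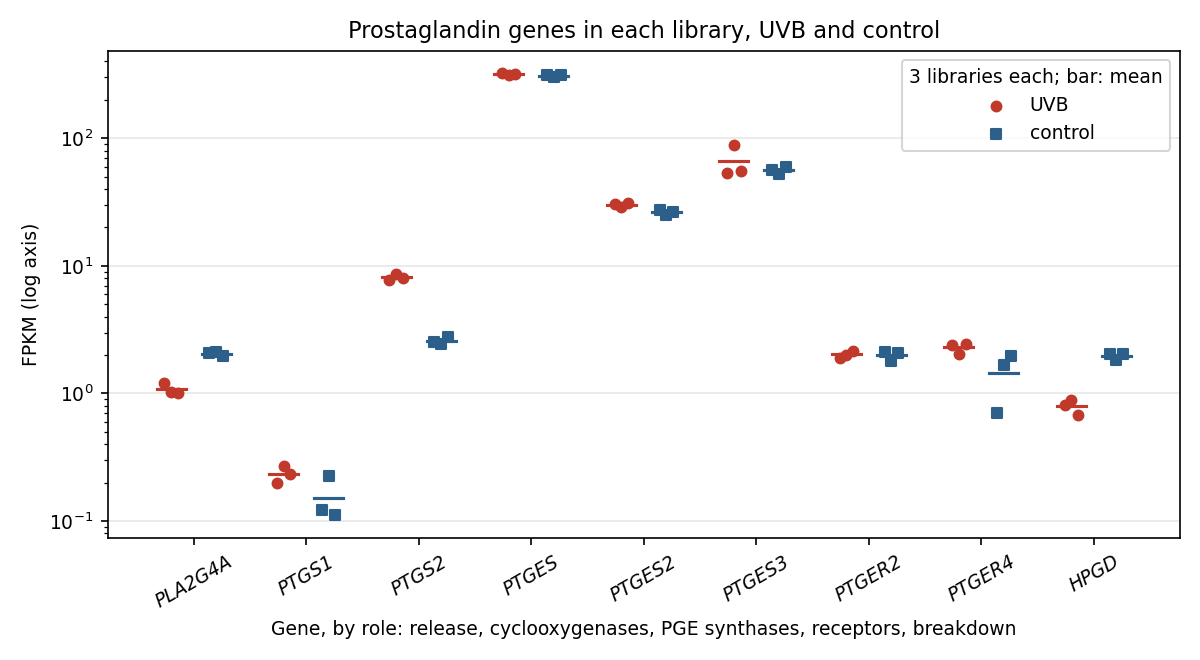
FPKM of the 9 prostaglandin genes on a log axis, with each of 3 UVB libraries (circles) and 3 control libraries (squares) as a point and the group mean as a bar. PTGS2 lies higher and PLA2G4A and HPGD lie lower after UVB, and the PTGES points of both groups sit between 302 and 325 FPKM.

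The libraries held 72517243 to 88484020 assigned reads after UVB and 66272443 to 81303733 in controls. Read numbers of single genes were recovered from FPKM, and whether the recovered unit is a read or a read pair was not settled. Libraries of the same group correlated at Pearson's r of 0.9834 to 0.9848 after UVB and 0.9808 to 0.9830 in controls, against 0.9654 to 0.9684 between groups, across 14921 genes on log2(FPKM + 1). Keratinocyte markers were present, with KRT5 at 122 ± 36.6 FPKM after UVB and 287 ± 75.2 FPKM in controls. KRT14, the usual partner of KRT5, was low for a keratinocyte, at 1.73 ± 0.149 FPKM after UVB and 1.02 ± 0.165 FPKM in controls. The 5 markers of differentiated keratinocytes summed to 32.2 to 35.1 FPKM after UVB and 37.6 to 46.3 FPKM in controls, with LOR at 0 in all 6 libraries. Of these, IVL was lower, at 7.82 ± 0.396 FPKM after UVB and 17.1 ± 2.65 FPKM in controls (limma adjusted p = 0.0014), and KRT10 did not pass. KRT1, at 0.140 FPKM after UVB and 0.680 FPKM in controls, and FLG, at 0.282 FPKM after UVB and 0.656 FPKM in controls, lay under the filter. Both were lower by limma without the filter (adjusted p = 0.032 for KRT1 and 0.037 for FLG). With edgeR's own, looser filter, chosen after seeing the data, their log2 fold changes were -2.30 and -1.25 (edgeR adjusted p = 0.013 and 0.0047). The 6 keratinocyte markers summed to 215 to 286 FPKM after UVB and 372 to 505 FPKM in controls, 1 of them higher and 2 lower. Most of the difference in this sum was KRT5, which was lower, as was ITGB4 (limma adjusted p = 0.014 and 0.022). KRT14 was the higher one (limma adjusted p = 0.016). TP63, DSG3 and CDH1 did not pass, with CDH1 at 31.8 FPKM after UVB and 31.7 FPKM in controls. The 6 fibroblast markers summed to 1.79 to 1.96 FPKM after UVB and 0.765 to 1.06 FPKM in controls, nearly all of it COL1A1, which was higher (limma adjusted p = 0.0040). The leukocyte markers summed to 18.6 to 26.2 FPKM after UVB and 10.7 to 12.0 FPKM in controls, nearly all of it CD68 and CD14, with CD3E and TPSAB1 at 0 in every library. CD68 was higher, at 18.2 FPKM after UVB and 5.16 FPKM in controls (limma adjusted p = 0.00083). CD14 did not pass, at 4.93 FPKM after UVB and 6.36 FPKM in controls (limma adjusted p = 0.099). PTPRC, which marks leukocytes in general, averaged 0.0057 FPKM after UVB and 0.0070 FPKM in controls. The 4 melanocyte markers summed to 7.54 to 7.998 FPKM after UVB and 4.31 to 4.764 FPKM in controls, mostly MITF, and the 3 endothelial markers to 5.91 to 8.96 FPKM after UVB and 4.26 to 5.21 FPKM in controls, mostly CDH5. MITF was higher (limma adjusted p = 0.0011) and CDH5 did not pass (limma adjusted p = 0.056). What part, if any, these markers have in the results was not tested.

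The pathway starts with PLA2G4A, the cytosolic phospholipase A2 that releases arachidonic acid (ENSG00000116711, chromosome 1, 186828953 to 186988981, plus strand, GRCh38). PLA2G4A was at 1.20, 1.03 and 1.00 FPKM in UVB replicates 1 to 3, against 2.07, 2.10 and 1.96 FPKM in control replicates 1 to 3. Every UVB library lay below every control library. These levels rest on 250, 262 and 228 reads after UVB and on 412, 401 and 457 reads in controls. The log2 fold change, UVB minus control, was -0.55 ± 0.0730 (SE, limma adjusted p = 0.0031) on log2(FPKM + 1). On recovered reads, where no pseudocount of 1 FPKM compresses low values, it was -0.98 (edgeR adjusted p = 0.0025), more than 1.5 times as large. The control mean was 1.90 times the UVB mean. In the authors' deposited table the log2 fold change of PLA2G4A was -0.93, with an adjusted p of 0.000228.

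The cyclooxygenases PTGS1 and PTGS2 catalyse the same step. PTGS1 is the isoform that many tissues express constantly, and PTGS2 is the isoform induced by growth factors, cytokines and stress. PTGS2 (ENSG00000073756, chromosome 1, 186671791 to 186680427, minus strand) was at 7.68, 8.70 and 8.07 FPKM after UVB, against 2.52, 2.46 and 2.74 FPKM in controls. The lowest UVB library was well above the highest control library, and the spread within each group was small beside that gap. The read numbers were 2935, 4055 and 3372 after UVB and 922, 859 and 1175 in controls. The log2 fold change of PTGS2 was 1.35 ± 0.0670 (SE, limma adjusted p = 0.000125), and the UVB mean was 3.16 times the control mean. Only 0.617% of the tested genes had a larger absolute log2 fold change on log2(FPKM + 1), a rank that depends on the pseudocount. In the authors' deposited table the log2 fold change of PTGS2 was 1.66, with an adjusted p of 7.17e-39.

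PTGS1 (ENSG00000095303, chromosome 9, 122370530 to 122395703, plus strand) had the lowest level of the 9 genes. It was at 0.200, 0.267 and 0.235 FPKM after UVB, against 0.122, 0.224 and 0.110 FPKM in controls, or 84, 137 and 108 reads after UVB and 49, 86 and 52 reads in controls. Control replicate 2 lay within the range of the UVB libraries, so the groups overlapped. Without the expression filter its log2 fold change was 0.10 (limma adjusted p = 0.34). On recovered reads with edgeR's own, looser filter, chosen after seeing the data, it was 0.59 (edgeR adjusted p = 0.25). PTGS1 did not pass in either fit. Within a library, FPKM of PTGS2 was 38.4, 32.5 and 34.3 times that of PTGS1 after UVB, against 20.7, 11.0 and 24.8 times in controls. PTGS2 was therefore the more abundant cyclooxygenase RNA in all 6 libraries, controls included. The ratio of PTGS2 to PTGS1 on log2(FPKM + 1) averaged 2.89 ± 0.0420 after UVB and 1.63 ± 0.128 in controls (SD, n = 3 each, 2-sided exact permutation p = 0.1, and 0.1 adjusted over 3 ratios). This is the smallest p that 3 against 3 libraries allow. The added 1 FPKM is larger than PTGS1 itself in every library, so this log2 ratio mostly follows PTGS2. Its difference between the groups was 1.25, against 1.35 for PTGS2 alone.

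The sequence before the start of PTGS2 is shown because it is the region in which control of this gene has been studied most. It is given beside that of PLA2G4A, which lies next to PTGS2 on chromosome 1 and fell, and that of HPGD, which also fell. Each run is the 250 bases before the RefSeq start, 5′ to 3′ on the strand of the gene (RefSeq, GRCh38.p14), with matches to the motifs named after it in capitals. For HPGD, which has 2 starts in the table, the one nearest the principal GENCODE transcript was used.
PTGS2 (chr1:186680424-186680673, minus strand): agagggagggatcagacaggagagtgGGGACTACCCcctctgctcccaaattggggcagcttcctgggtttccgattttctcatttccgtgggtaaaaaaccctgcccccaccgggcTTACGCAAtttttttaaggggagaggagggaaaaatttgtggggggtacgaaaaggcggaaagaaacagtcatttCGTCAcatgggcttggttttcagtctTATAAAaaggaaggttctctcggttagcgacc
PLA2G4A (chr1:186828699-186828948, plus strand): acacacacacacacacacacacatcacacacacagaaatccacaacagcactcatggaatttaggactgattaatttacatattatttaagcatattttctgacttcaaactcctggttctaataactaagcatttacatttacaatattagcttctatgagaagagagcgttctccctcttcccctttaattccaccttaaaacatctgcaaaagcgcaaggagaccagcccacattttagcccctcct
HPGD (chr4:174522894-174523143, minus strand): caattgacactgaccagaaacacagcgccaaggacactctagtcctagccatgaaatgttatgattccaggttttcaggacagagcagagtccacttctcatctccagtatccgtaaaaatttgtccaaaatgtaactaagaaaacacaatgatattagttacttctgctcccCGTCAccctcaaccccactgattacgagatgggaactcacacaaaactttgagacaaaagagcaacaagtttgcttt
The motifs searched on both strands were GGG and CCC with any 4 bases between them for NF-κB, TGACG for a cyclic AMP response element core, TTNCGCAA for C/EBP, TGANTCA for AP-1, TATAAA for the TATA box and GGGCGG for the GC box, where N is any base. Some matches can overlap, as NF-κB and GC box letters do in the PTGER2 window.

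The PTGS2 window held 4 of the 6 motifs. Counting back from -1 at the base before the start, NF-κB letters were at -224 to -215, C/EBP letters at -133 to -126, cyclic AMP response element letters on the opposite strand at -58 to -54, and a TATA box at -32 to -27. Of all 35097 such RefSeq windows, 16.1% held the NF-κB letters, 0.752% the C/EBP letters, 21.2% the cyclic AMP letters and 10.7% the TATA box. PTGS2 was the only one of the 9 genes with the C/EBP letters, by the window nearest its principal transcript. The other 3 motifs were not particular to it. NF-κB letters were in 4 of the 9 windows, also those of PTGER2, PTGER4 and PTGES3. Cyclic AMP letters were in 4, also those of HPGD, PTGER2 and PTGES3. TATA box letters were in 2, also that of PTGS1, there on the opposite strand at -208 to -203. The PLA2G4A window matched none of the 6 motifs and the HPGD window matched the cyclic AMP letters only, at -77 to -73 on the opposite strand. The AP-1 letters, found in 6.57% of all windows, were in none of the 9, and the GC box, found in 42.6%, was in 6 of them. A match describes letters and does not show that a factor bound there.

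PTGS2 and PLA2G4A are neighbours that changed in opposite directions. Their gene ends lie 148525 bases apart, and PACERR, a non-coding RNA gene that starts beside PTGS2 on the other strand, is the only annotated gene wholly between them. PACERR (ENSG00000273129, chromosome 1, 186680622 to 186681446, plus strand) begins 194 bases from the end of the PTGS2 gene model, so the windows before the starts of PTGS2 and PACERR share 230 bases. PACERR was at 0.535, 0.589 and 0.519 FPKM after UVB, against 0.419, 0.439 and 0.760 FPKM in controls, from 24 to 51 reads per library. The UVB libraries fell inside the range of the controls, and PACERR did not pass (log2 fold change 0.01 with a 95% interval of -0.25 to 0.28, limma adjusted p = 0.94). Its direction was negative on recovered reads and in 3 of the 6 fits that left out a library. The difference between the changes of PTGS2 and PACERR was not itself tested.

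Messenger RNA of PTGS2 is known as a target of proteins that bind AU-rich elements, so the pentamer ATTTA was counted in annotated 3′ untranslated regions. PTGS2 had 22 copies in 2562 bases, and 2.21% of 10920 genes had as many in their principal transcript, where the median was 2. PLA2G4A had 4 copies in 473 bases and HPGD had 5 in 1779 bases. PTGER4 had 9 in 1357 bases, PTGES3 had 6 in 1136 bases and PTGES2 had 0 in 452 bases. The higher gene and a lower gene thus had nearly the same density, at 8.59 per kilobase for PTGS2 and 8.46 per kilobase for PLA2G4A.

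**Figure D2:**
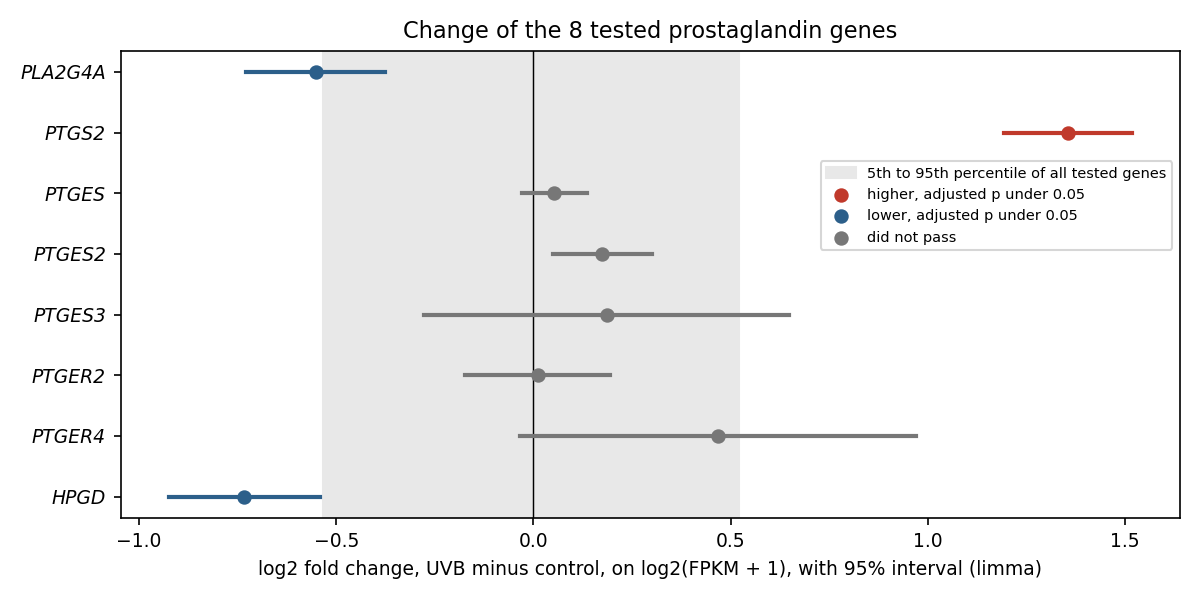
Log2 fold change, UVB minus control, of the 8 tested genes on log2(FPKM + 1), with 95% intervals from limma and the 5th to 95th percentile of all 14921 tested genes shaded. PTGS2 at 1.35, PLA2G4A at -0.55 and HPGD at -0.73 passed the test, and the other 5 did not.

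Terminal synthesis of prostaglandin E2 is carried out by PTGES, the microsomal synthase that works with PTGS2, by PTGES2, and by PTGES3, a cytosolic synthase that is also the HSP90 co-chaperone p23. PTGES (ENSG00000148344, chromosome 9, 129738331 to 129753047, minus strand) had the highest level of the 9 genes in each library, at 325, 314 and 319 FPKM after UVB, against 311, 302 and 311 FPKM in controls. All 3 UVB values lay above all 3 control values, but by a small margin, and 45.8% of tested genes had groups that did not overlap. The log2 fold change of PTGES was 0.05 ± 0.0343 (SE, limma adjusted p = 0.30), with a 95% interval of -0.03 to 0.14. It was -0.0006 on recovered reads (edgeR adjusted p = 0.99), and it passed with quantile normalization at 0.16 (limma adjusted p = 0.011). With edgeR's own filter, chosen after seeing the data, it was 0.02, so the sign of PTGES was not the same in every setting.

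PTGES2 (ENSG00000148334, chromosome 9, 128120693 to 128128462, minus strand) was at 30.3, 28.6 and 30.8 FPKM after UVB, against 27.6, 25.2 and 26.4 FPKM in controls. The groups did not overlap, and the log2 fold change of 0.17 ± 0.0521 narrowly missed the threshold (SE, limma adjusted p = 0.051). It passed when the filter was raised to 1 FPKM (limma adjusted p = 0.047), and what moved it over the threshold was not tested. PTGES3 (ENSG00000110958, chromosome 12, 56663341 to 56688408, minus strand) was at 53.3, 88.6 and 55.5 FPKM after UVB, against 56.5, 52.3 and 60.0 FPKM in controls. Its higher UVB mean came from UVB replicate 2, while the other 2 UVB libraries lay within the range of the controls. The log2 fold change of PTGES3 was 0.19 ± 0.192 (SE, limma adjusted p = 0.52) and -0.05 without UVB replicate 2 (limma adjusted p = 0.68). The processed pseudogene PTGES3P1, to which reads of PTGES3 could be misassigned, was at 7.86 to 9.36 FPKM after UVB and 6.74 to 8.59 FPKM in controls.

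PTGES made up 79.5%, 72.8% and 78.7% of the summed FPKM of the 3 synthases after UVB, against 78.7%, 79.6% and 78.3% in controls. The low share in UVB replicate 2 goes with its high PTGES3 value. PTGES2-AS1, a non-coding RNA gene on the other strand that starts 66 bases from PTGES2, was picked out after its values were seen. It was at 1.01, 1.16 and 1.15 FPKM after UVB, against 1.92, 1.73 and 1.84 FPKM in controls, with no overlap. PTGES2-AS1 was lower by limma at -0.43 ± 0.0719 on the log2 scale (SE, adjusted p = 0.0073) and at -0.78 by edgeR on recovered reads (adjusted p = 0.0078), and in the authors' deposited table the log2 fold change was -0.73 with an adjusted p of 0.0605. PTGES2 on the facing strand had a log2 fold change of 0.17, and the difference between the pair was not tested.

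The receptors EP2 and EP4, encoded by PTGER2 and PTGER4, both respond to prostaglandin E2 by raising cyclic AMP. PTGER2 (ENSG00000125384, chromosome 14, 52314305 to 52328606, plus strand) was at 1.90, 2.01 and 2.17 FPKM after UVB, against 2.13, 1.81 and 2.08 FPKM in controls. The groups overlapped over nearly their whole range. The log2 fold change of PTGER2 was 0.01 ± 0.0763 (SE, limma adjusted p = 0.94) with a 95% interval of -0.17 to 0.19, and its sign turned with TMM scaling and on recovered reads. PTGER4 (ENSG00000171522, chromosome 5, 40679498 to 40693735, plus strand) was at 2.42, 2.03 and 2.43 FPKM after UVB, against 0.702, 1.67 and 1.95 FPKM in controls. Every UVB library lay above every control library, but control replicate 1 was far below the other 2 controls. PTGER4 did not pass, with a log2 fold change of 0.47 ± 0.208 and a 95% interval of -0.03 to 0.97 (SE, limma adjusted p = 0.15). Without control replicate 1 it was 0.23 (limma adjusted p = 0.17). In the authors' deposited table the log2 fold change of PTGER4 was 0.66, with an adjusted p of 0.393. The ratio of PTGER2 to PTGER4 on log2(FPKM + 1) averaged -0.12 ± 0.112 after UVB and 0.34 ± 0.468 in controls (SD, n = 3 each, 2-sided exact permutation p = 0.1, and 0.1 adjusted over 3 ratios). Its difference of -0.46 shrank to -0.19 without control replicate 1 and was -0.73 with a pseudocount of 0.1.

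HPGD encodes the dehydrogenase that starts the inactivation of prostaglandin E2 (ENSG00000164120, chromosome 4, 174490177 to 174523154, minus strand). HPGD was at 0.811, 0.881 and 0.679 FPKM after UVB, against 2.04, 1.83 and 2.05 FPKM in controls. No UVB library reached the level of any control, on 325, 431 and 298 reads after UVB and 782, 672 and 921 reads in controls. The log2 fold change of HPGD was -0.73 ± 0.0795 (SE, limma adjusted p = 0.0015) and the control mean was 2.50 times the UVB mean. On recovered reads it was -1.37 (edgeR adjusted p = 0.00068), more than 1.5 times as large on the log2 scale. In the authors' deposited table the log2 fold change of HPGD was -1.33, with an adjusted p of 9.39e-12. Among 32902 genes of the authors' deposited table, 8.6% had an adjusted p under 0.05, 4.67% as higher and 3.93% as lower. Of the 9 prostaglandin genes these were PTGS2, PLA2G4A and HPGD.

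A ratio of FPKM within a library does not depend on how that library was scaled. FPKM of PTGS2 was 9.48, 9.87 and 11.9 times that of HPGD after UVB, against 1.24, 1.34 and 1.34 times in controls. In controls the 2 genes were thus close in level, and after UVB they stood about an order of magnitude apart. On log2(FPKM + 1), where the added 1 makes the ratio depend on scale, it averaged 2.35 ± 0.0863 after UVB and 0.27 ± 0.0457 in controls (SD, n = 3 each, 2-sided exact permutation p = 0.1, and 0.1 adjusted over 3 ratios). FPKM of PTGS2 was likewise 6.41, 8.44 and 8.07 times that of PLA2G4A after UVB, against 1.22, 1.17 and 1.40 times in controls. With a pseudocount of 0.1 the difference in the PTGS2 to HPGD ratio was 2.85 on the log2 scale, against 2.09 with 1. None of these ratios overlapped between the groups.

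**Figure D3:**
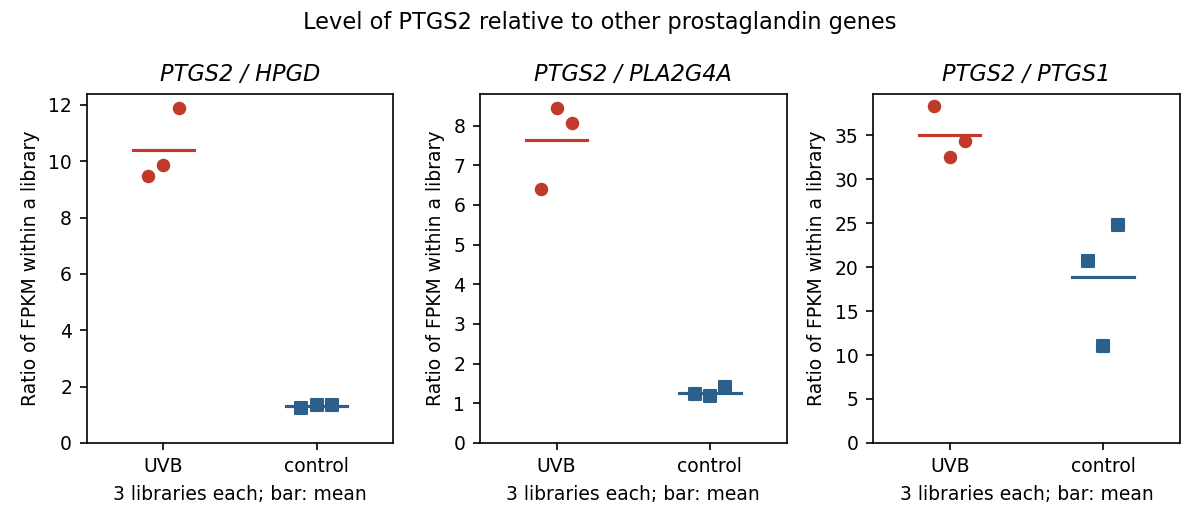
FPKM of PTGS2 divided by that of HPGD, PLA2G4A or PTGS1 within each of 3 UVB libraries (circles) and 3 control libraries (squares), with the group mean as a bar and each axis starting at 0. The ratio to HPGD lies between 9.48 and 11.9 after UVB and between 1.24 and 1.34 in controls.

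The order of levels at the top was the same in every library, namely PTGES, PTGES3, PTGES2 and PTGS2, and PTGS1 was the lowest in every library. After UVB the next genes were PTGER4, PTGER2, PLA2G4A and HPGD in each library, and the ranges of PTGER4 and PTGER2 overlapped. In controls PTGER2, PLA2G4A and HPGD had overlapping ranges and changed places between libraries. PTGER4 ranked below them in each control library, though its range overlapped those of PTGER2 and HPGD. In control replicate 3 PTGER4 was at 1.953 FPKM, against 1.955 FPKM for PLA2G4A. Of the 8 tested genes, 4 had all UVB libraries above all controls, 2 had all of them below, and 2 overlapped. Over all tested genes those shares were 27.6% above and 18.2% below.

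Genes around the pathway were counted in 9 lists of 122 genes, 86 of which were tested. Of these, 19 were higher and 14 lower, where 17.0% of all tested genes were higher and 11.0% lower, and the median log2 fold change of all tested genes was 0.04. In the list of phospholipases A2 and ANXA1, 1 of 8 tested genes was lower and 0 were higher, around a median of 0.11. ANXA1, which encodes annexin A1, an inhibitor of phospholipase A2 activity, was at 106 ± 2.75 FPKM after UVB and 124 ± 9.36 FPKM in controls, with a log2 fold change of -0.23 (limma adjusted p = 0.035). That call was lost in 8 of 17 alternatives. Among them were the fits without UVB replicate 1, 2 or 3 or control replicate 1, at -0.24, -0.23, -0.20 and -0.25. Another was the fit without the expression filter (limma adjusted p = 0.080). On recovered reads 2 genes of the list were lower by edgeR, ANXA1 and the phospholipase A2 gene PLA2G12A. PLA2G12A was at 3.96 FPKM after UVB and 4.71 FPKM in controls. Its log2 fold change on recovered reads was -0.30 (edgeR adjusted p = 0.044), and it did not pass with limma (adjusted p = 0.065). Among genes past the filter, no phospholipase A2 gene other than PLA2G4A passed limma's test, and 11 of the 19 listed lay under the filter. One of those, PLA2G4C, another group IV phospholipase A2, had 89, 138 and 118 reads after UVB and 29, 23 and 57 reads in controls. PLA2G4C was higher by limma without the filter (adjusted p = 0.031) and by edgeR with its own filter, at a log2 fold change of 1.49 (adjusted p = 0.019). PLA2G4F, also under the filter, was lower by edgeR with its own filter, at -1.08 (adjusted p = 0.038), and did not pass limma without the filter (adjusted p = 0.089).

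Among other prostanoid synthases and reductases, 1 of 8 tested genes was higher and 3 lower, with a median of -0.04. CBR1, a carbonyl reductase that acts on prostaglandin E2, was at 27.4 ± 3.80 FPKM after UVB and 38.6 ± 3.11 FPKM in controls (limma adjusted p = 0.019). PTGIS, the prostacyclin synthase, had a log2 fold change of -0.43 and AKR1C2, an aldo-keto reductase, one of -0.22 (limma adjusted p = 0.0064 and 0.034). PTGIS was at 0.902 ± 0.0587 FPKM after UVB and 1.57 ± 0.0639 FPKM in controls, and on recovered reads, with no pseudocount of 1 FPKM, its log2 fold change was -0.85 (edgeR adjusted p = 0.0020). The call of CBR1 was lost in 3 of 17 alternatives, among them the fits without UVB replicate 2 or control replicate 1, at -0.47 and -0.42. That of AKR1C2 was lost in 8 of 17, among them the fits without any one of the 6 libraries, at -0.24 to -0.17. The 1 higher gene of the list, AKR1B1, did not pass with edgeR, so no gene of the list was then higher. PTGDS and HPGDS, the prostaglandin D synthases, and TBXAS1, the thromboxane synthase, were listed at 0 in all 6 libraries. None of 7 other prostanoid receptor genes passed the filter. The highest of them were PTGER1, with 25, 0 and 6 reads after UVB and 17, 13 and 13 reads in controls, and PTGDR2, with 5, 16 and 0 reads after UVB and 9, 0 and 9 reads in controls.

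Transport and breakdown of prostaglandins had 4 tested genes, with 2 lower, 0 higher and a median of -0.16. ABCC4, an exporter of prostaglandins, was at 3.97 ± 0.196 FPKM after UVB and 5.33 ± 0.346 FPKM in controls (limma adjusted p = 0.011). ZADH2, a reductase of 15-keto prostaglandins that acts after HPGD, was at 3.53 ± 0.143 FPKM after UVB and 4.69 ± 0.379 FPKM in controls (limma adjusted p = 0.018). Its call was lost without UVB replicate 1 or 2 or control replicate 1 or 3, where it was -0.31, -0.32, -0.30 and -0.30 on the log2 scale. The uptake carrier gene SLCO2A1 lay under the filter, with 26, 24 and 34 reads after UVB and 105, 82 and 166 reads in controls. With edgeR's own, looser filter, chosen after seeing the data, its log2 fold change was -2.22 (edgeR adjusted p = 0.0034).

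The lipoxygenase and leukotriene branch uses the same fatty acid. Of its 10 tested genes, 1 was higher and 3 were lower, with a median of -0.11. ALOXE3, an epidermal lipoxygenase of the skin barrier, was at 1.83 ± 0.0944 FPKM after UVB and 0.282 ± 0.109 FPKM in controls, with a log2 fold change of 1.14 on log2(FPKM + 1) (limma adjusted p = 0.00053). On recovered reads the log2 fold change of ALOXE3 was 2.65 (edgeR adjusted p = 0.0013), and its UVB mean was 6.47 times its control mean. LTC4S, the leukotriene C4 synthase, had a log2 fold change of -0.61, and ALOX5, the arachidonate 5-lipoxygenase, one of -0.41 (limma adjusted p = 0.016 for each). The call of LTC4S was lost without UVB replicate 2 or 3 or control replicate 3, at -0.58, -0.60 and -0.55. ALOX5 did not pass without UVB replicate 1 or control replicate 1, at -0.36 and -0.39.

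Of 9 tested genes that release arachidonic acid from other lipids or return it to membranes, 3 were higher and 1 lower, with a median of 0.15. FAAH, a fatty acid amide hydrolase, was at 7.59 ± 0.375 FPKM after UVB and 5.01 ± 0.240 FPKM in controls (limma adjusted p = 0.0019). DAGLA, a diacylglycerol lipase, had a log2 fold change of 0.50 (limma adjusted p = 0.018). Its call was lost in 4 of 17 alternatives. These were the fit without the expression filter and those without UVB replicate 2 or control replicate 1 or 3, the latter at 0.51, 0.48 and 0.47. LPCAT3, which puts arachidonic acid back into phospholipids, was at 9.46 ± 0.365 FPKM after UVB and 14.1 ± 1.04 FPKM in controls, with a log2 fold change of -0.53 (limma adjusted p = 0.0025).

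Of 23 tested genes that are known to act on PTGS2, 5 were higher and 1 lower, with a median of 0.12. Most encode transcription factors or RNA-binding proteins, and the list also held kinases and the non-coding RNA PACERR. The higher genes were JUN, EGR1 and CEBPB, with log2 fold changes of 1.74, 1.19 and 0.98, then FOSL1 and NFKB1. The lower gene was ZFP36L2. CEBPB, which encodes a C/EBP factor, was at 113 ± 3.35 FPKM after UVB and 56.7 ± 2.26 FPKM in controls (limma adjusted p = 0.000102). Other listed genes for AU-rich element binding proteins, such as ZFP36 and ELAVL1, did not pass, with log2 differences of 0.08 and 0.02.

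Downstream of EP2 and EP4, 3 of 16 tested genes were higher and 3 lower, with a median of 0.10. PRKAR1A, a regulatory subunit of the cyclic AMP-dependent kinase, was at 31.1 ± 5.47 FPKM after UVB and 12.6 ± 0.685 FPKM in controls (limma adjusted p = 0.0011). PRKACB, a catalytic subunit of the same kinase, had a log2 fold change of -0.50 (limma adjusted p = 0.0077). NR4A1, an early response gene for a nuclear receptor, was at 2.19 ± 0.132 FPKM after UVB and 0.905 ± 0.242 FPKM in controls, a log2 fold change of 0.75 (limma adjusted p = 0.0043). On recovered reads the log2 fold changes of PRKACB and NR4A1 were -0.75 and 1.23 (edgeR adjusted p = 0.0038 and 0.0048).

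Of the 8 genes for HSP90 and its partners, 6 were higher and 0 lower, around a median of 0.19. CDC37, FKBP5 and AHSA1, which encode co-chaperones of HSP90, had log2 fold changes of 0.39, 0.28 and 0.24 (limma adjusted p = 0.026, 0.030 and 0.043). The calls of CDC37 and FKBP5 were each lost in 6 of 17 alternatives, and that of AHSA1 in 12. With edgeR on recovered reads, 2 of the 8 were higher and 1 was lower. The lower gene was HSP90AB1, at 799 FPKM after UVB and 852 FPKM in controls (edgeR adjusted p = 0.013). HSP90AB1 did not pass with limma (adjusted p = 0.080). The limma count of higher genes was 0, 3 and 1 without UVB replicates 1, 2 and 3, and 0, 4 and 3 without control replicates 1, 2 and 3.

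**Figure D4:**
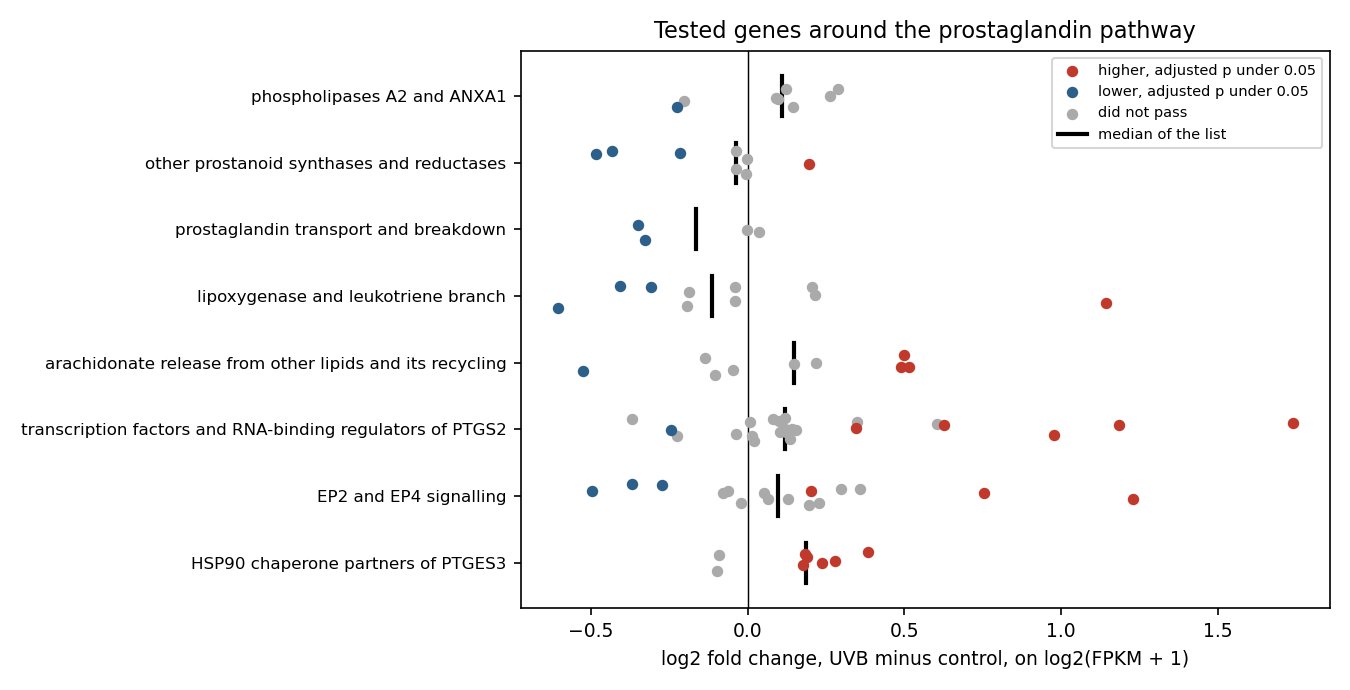
Log2 fold change, UVB minus control, of each tested gene in 8 of the 9 lists around the prostaglandin pathway, coloured by the limma call, with the list median as a bar. No gene of the remaining list, the other prostanoid receptors, was tested, and 53 of the 86 tested genes did not pass.

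The 5 protein-coding genes whose pattern was most like that of PTGS2 were NAT10, CDC5L, ZNF408, IFIT3 and CEBPG, among 11586 protein-coding genes compared. Likeness was Pearson's r on log2(FPKM + 1) over the 6 libraries, which all share the contrast between UVB and control, and r was 0.9992, 0.9992, 0.9990, 0.9989 and 0.9986. These values describe 6 libraries in 2 groups, and any gene with a steady difference between the groups comes close to 1. Their log2 fold changes were smaller than that of PTGS2, at 0.29, 0.26, 0.42, 0.93 and 0.78.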

How the data were processed

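RNA-seq of 3 UVB and 3 control libraries of HaCaT cells was analysed from tables the authors deposited. Per the submitters' processing notes, HISAT2 2.0.5, StringTie, DESeq and build hg38 (GRCh38) were used; for the counting program, strand setting and annotation, a statement was not found in the labels. The authors deposited FPKM for genes and repeat copies, read counts of selected repeat copies, and, per the file headers, log2 fold changes, mean normalised counts (a signal), a test score, p-values and adjusted p-values of their own comparison. All 58735 gene identifiers are in GENCODE release 29, and 58643 lengths equal its merged exons. No exon of the 9 genes overlaps an exon of another annotated gene. Reads were recovered from FPKM with the totals implied by the deposited counts, and 100% of non-zero values were whole within 0.01.

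The test was limma 3.58.1 (trended eBayes, R 4.3.3) on log2(FPKM + 1) for genes averaging 0.5 FPKM or more. Alternatives used edgeR 4.0.16 and DESeq2 1.42.0 on recovered reads, another pseudocount, other filters and scalings, the replicate number as a block, and fits without 1 library at a time. Tests were checked on simulated data. Ratios were tested by exact permutation in scipy 1.17.1. The 9 genes and the 9 lists were chosen with earlier results of these data known. From each list, up to 3 called genes with the largest change, or the 2 highest where none passed, were named, with PACERR and the 5 genes most correlated with PTGS2. Other genes (AKR1B1, FOSL1, NFKB1, ZFP36L2, ZFP36, ELAVL1, SLCO2A1, PLA2G4C, PLA2G4F, PLA2G12A, HSP90AB1, PTGDS, HPGDS, TBXAS1, PTGES2-AS1, PTGES3P1) were added after their values were seen.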

Additional observations from a re-analysis of the deposited data

How the results depend on the processing

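The calls of PTGS2, PLA2G4A and HPGD and their directions held in all 17 alternatives, with log2 fold changes of 1.31 to 1.62, -0.98 to -0.53 and -1.37 to -0.69 and adjusted p-values up to 0.0044, 0.020 and 0.015. One further gene of the 9 passed in each of 2 settings, which gave 2 higher genes: PTGES2 with the filter of 1 FPKM (0.17) and PTGES with quantile normalization (0.16). The sign of genes near 0 turned. PTGES was at -0.000598 with edgeR and -0.0013 with DESeq2. PTGER2 was at -0.011 with TMM scaling, -0.0395 with edgeR, -0.0405 with DESeq2 and -0.0236 with edgeR and its own filter, an alternative chosen after seeing the data, and ranged from -0.0383 to 0.0404 when a library was left out. PACERR was at -0.0384 with edgeR, -0.0398 with DESeq2 and -0.0212 with edgeR and its own filter, and ranged from -0.0405 to 0.115 when a library was left out. PTGES3 ranged from -0.0453 to 0.315 when a library was left out. The cause of these turns was not tested.

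Over all genes, 1639 to 2074 were higher and 1178 to 1332 lower when a library was left out, against 2530 and 1637 with all. In the 9 lists together, 10 to 17 were then higher and 8 to 12 lower, against 19 and 14. Whether same-numbered libraries were paired is not stated. Their deviations from the group means correlated at 0.048, 0.022 and 0.030, against -0.033 to 0.004 between different numbers. Each library thus correlated best with its own number, though weakly. With replicate number as a block, 1789 genes were higher and 1240 lower, and 12 and 9 in the lists. The block changed no call among the 9 genes. The 3 ratios kept their direction in every alternative. Values of PTGS1 rest on 49 to 137 reads and those of PACERR on 24 to 51 reads per library, and whether depth limits their tests was not tested. The split of all calls was 2530 higher and 1637 lower with limma, against 1979 and 1979 with edgeR.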
